A study of Caenorhabditis elegans with 60 samples.

Results

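The windows described here are stretches of the Caenorhabditis elegans genome that hold many counts in 1 of the study's 2 series of libraries and none in the inputs of the other. The deposited table divides the ce10 genome into consecutive windows of 500 bp and gives the number of counts of each library in each window. A window was taken as a member when it lay on a nuclear chromosome, had 0 counts in all 6 input libraries of the strains lin-61 and lin-61 met-2, whose titles carry the series number 2080, and had at least 50 counts in inputs 2 and 3 of the wild type N2, whose titles carry the number 2236. Of 200579 windows in the table, 1986 met this rule, which was 0.990% of the 200551 nuclear windows. The members were thus chosen by the input counts of 8 libraries, and the emptiness of the members in those inputs and their N2 input counts are a description and no finding.

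Few windows lay near the N2 minimum of the rule. A nuclear window was at 0 in the 6 lin-61 series inputs in 1996 cases, and the 10 that were no members had at most 30 counts in the lower of the 2 N2 inputs. The lowest member had 55 counts there, and 14 members had fewer than 100. The limit at 0 was less clear-cut, because 599 more windows had at most 2 counts in each lin-61 series input and met the N2 minimum. A median nuclear window held 204 to 273 counts in the lin-61 series inputs, and a count of 0 allows up to 3 counts per window and library at this depth, for counting error only.

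The study asked how the methyltransferase that makes H3K9me3, the trimethylation of lysine 9 of histone H3, finds its targets in somatic cells. Chromatin came from early embryos, before the bean stage, of synchronised animals. Each of the 5 strains gave 3 preparations, each with an input and an H3K9me3 library, and the 60 records are 2 runs of each of 30 libraries. The strains were N2 (Bristol), nrde-3(tm1116) X, a double mutant of that allele with met-2(n4256) III (met-2 nrde-3, called the double mutant below), the single mutant lin-61(tm2649) I and a double mutant of this second allele with met-2(n4256) III, with no transgene or other treatment named. Both double mutants carry the same met-2 allele, and the first 3 strains make up series 2236. Whole embryos were used, so the values average over all their cells. The labels disagree on 2 points: the protocol names an antibody against LEM-2 where the titles name H3K9me3, and 2 biological replicates are stated in the growth protocol against 3 elsewhere.

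Some libraries went against their labels. The library labelled N2 input 1 had a 99th percentile of 12.96 times its median window, where the other inputs of series 2236 had 1.48 to 1.73, and the library labelled N2 H3K9me3 1 was the flattest of the H3K9me3 libraries at 1.71, so levels in N2 rest on preparations 2 and 3. At a gap on III, the chromosome of met-2, the libraries labelled nrde-3 input stood at 0.060 to 0.065 of the depth in the median library of their type. The H3K9me3 libraries with the label met-2 nrde-3 were at 0.083 to 0.097, but the inputs with that label had 1.00 to 1.04. A gap on V crossed the other way. There the inputs labelled met-2 nrde-3 stood at 0.0086 to 0.043 and those labelled nrde-3 at 0.97 to 1.00. The H3K9me3 libraries labelled nrde-3 were at 0.010 to 0.031 in that gap, and those labelled met-2 nrde-3 at 0.90 to 1.38. Whether the input labels were exchanged was not tested. The inputs of the mutants were used as labelled, and the counts of members, runs and level classes that rest on them are also given with these labels exchanged. Levels and changes over input of single runs are as labelled unless stated. Depth was 47874152 to 62101882 counts per input and 45137188 to 65845682 per H3K9me3 library in series 2236.

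H3K9me3 marks silent heterochromatin, which in the worm covers transposons, satellite repeats and other repeated sequence and is densest on the distal arms of the autosomes. MET-2, related to mammalian SETDB1, adds the first methyl groups to the lysine, and SET-25 can bring it to the trimethylated state. NRDE-3 is an Argonaute protein that carries small RNAs into the nuclei of somatic cells and leads silencing factors to matching transcripts, and LIN-61 is an MBT-domain protein that binds methylated lysine 9. Repeated sequence is therefore where such pathways are mostly studied, and it is also where short reads can match several places. How such reads were placed and counted in the 2 series is not given in the sources used here, and no genome or annotation of ce10 was at hand, so the members are named by position and neither their sequence nor any gene is given.

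Every member had counts in all 18 libraries of series 2236, the lowest being 3 counts. In the H3K9me3 libraries of the lin-61 series, which the rule did not use, 1829 members were at 0 throughout and 157 had a count, the highest being 8. Their 1986 windows together held 26 to 94 counts in each of those libraries, against 955727 to 2765439 in each H3K9me3 library of series 2236. The emptiness of the members was therefore also present in libraries that had no part in choosing them. Around the members it was partial: of the 5724 other windows that lie within 10 windows of a member, called flanking windows here, 35.7% had under 0.5 of the median depth in the lin-61 series inputs, against 5.57% of all nuclear windows.

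The members were unevenly spread over the chromosomes. Chromosome V held 837 of them, 42.1% of all members against 20.9% of nuclear windows. IV held 416, II 237, I 214, X 152 and III 130. The arms, defined as 0.333 of an autosome from either end, held 1502 members, which was 75.6% against 54.9% of nuclear windows. The centres of the autosomes held 332, or 16.7% against 27.4%.

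**Figure D1:**
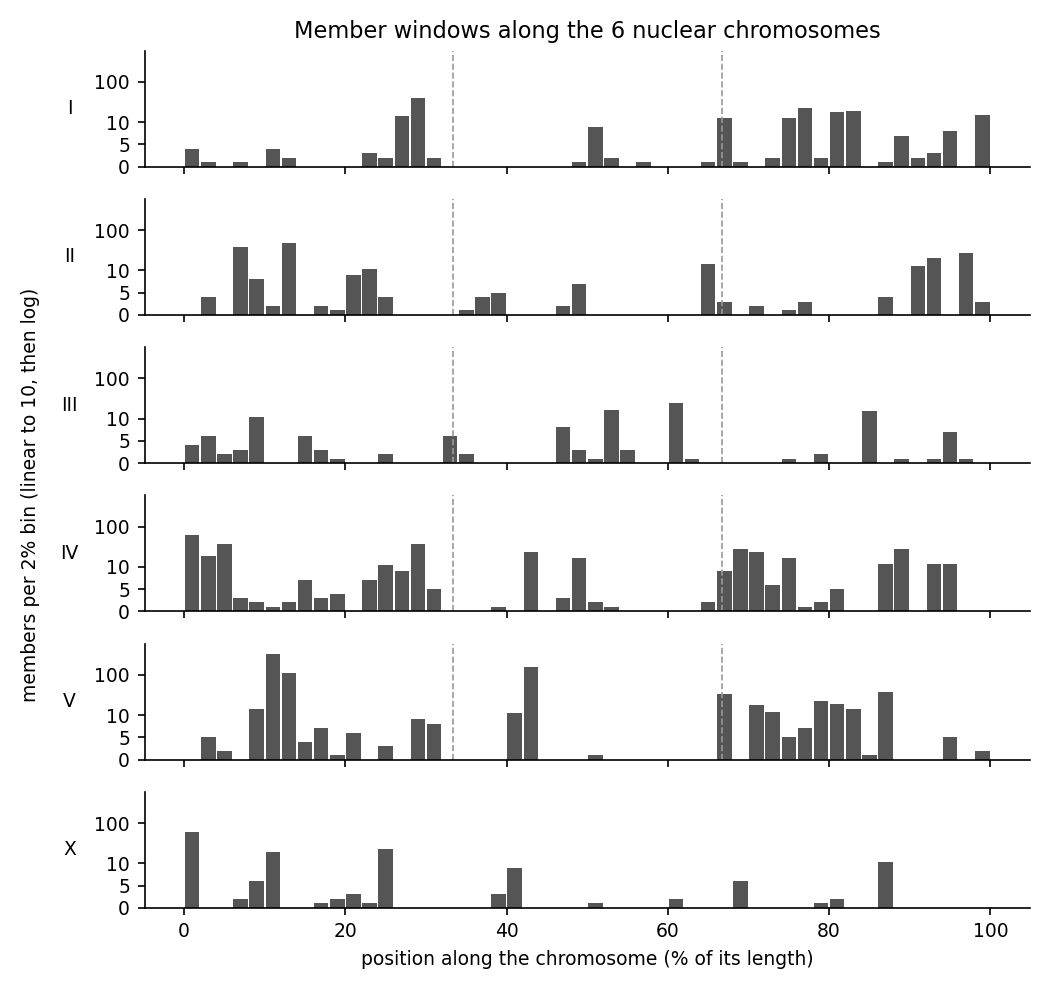
Members per bin of 2% of the chromosome length, by chromosome, on an axis that is linear up to 10 and logarithmic above, with dashed lines at the arm borders of the autosomes. The highest bins are on V, with 322 members at 10% of the length, 157 at 42% and 111 at 12%, and the first bins of IV and X hold 63 and 61.

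Members came in runs of touching windows. There were 466 runs, of which 181 were single windows, 190 had at least 3 windows and 33 at least 10, and the longest had 144. Runs of at least 3 windows held 1615 of the 1986 members, and runs of at least 10 held 879. Many runs had a neighbour of the same length. Of 103 runs of at least 5 windows, 74 (71.8%) had another run within 1 window of their own length at most 150000 bp away, at a median distance of 6000 bp between the starts (range 3500 to 107500 bp).

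When runs no more than 10 windows apart were joined, 251 blocks resulted, and this joining was chosen after the data were seen. The largest block, at chrV:2347466-2561964, spanned 214499 bp and held 416 members in 429 windows, which was 20.9% of all members. The second, at chrV:8813938-8896937 in the centre of V, spanned 83000 bp with 155 members in 166 windows. The third lay at the left end of IV, at chrIV:1344-44843, with 63 members in 87 windows. The others held at most 40 members each.

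Both large blocks on V were set against themselves at the shift that gave the best match of member windows, 108000 bp for the first and 42500 bp for the second. Members fill 97.0% and 93.4% of the windows of the 2 blocks, so the overlap of members at a shift says little, and the levels of the paired windows were compared instead. In the second block the levels of 76 window pairs differed by a median of 0.18 in N2, 0.20 in nrde-3 and 0.16 in the double mutant on the log2 scale, against SDs of 1.55, 1.21 and 1.47 between its members. Pearson's r between the shifted profiles was 0.98 in each strain. In the first block, over 205 pairs, the differences were 0.10, 0.16 and 0.15 against SDs of 0.742, 0.345 and 0.215, and r was 0.95, 0.75 and 0.48, so the match was closest in N2 and loosest in met-2 nrde-3, whose levels vary least there. Neighbouring windows are not independent, paired windows may share reads and the shift was chosen for its match, so these values describe the profile only.

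The large block on V differed between the strains in depth. Relative to the median nuclear window of each library, its members had a median depth of 2.64 to 2.94 in the 3 libraries labelled N2 input and of 3.02 to 3.49 in the 3 labelled N2 H3K9me3. The median was 0.43 to 0.47 in the nrde-3 inputs, 0.44 to 0.50 in the met-2 nrde-3 inputs, 0.44 to 0.50 in the nrde-3 H3K9me3 libraries and 0.40 to 0.42 in the met-2 nrde-3 H3K9me3 libraries. No mutant library came near an N2 library, and both library types showed the same order. Nonmember windows within 50 kb on either side stood at 0.88 to 0.93 in the mutant inputs and at 0.90 to 1.13 in the N2 inputs. In the lin-61 series the median was 0 in all 12 libraries.

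The 2 N2 libraries that go against their labels, which the rule did not use, had this depth as well, at 2.94 for N2 input 1 and 3.02 for N2 H3K9me3 1. Across inputs 2 and 3 of N2 and the 6 mutant inputs, the mean ratio of N2 to mutant depth in the block was 5.78, and the lowest N2 input was 5.27 times the highest mutant input. The ratio exceeded 3 in 413 of the 416 members. Outside the block its median was 0.98 over 1570 members, and it exceeded 1.5 in 1 and was under the inverse, 0.667, in 10. The difference in depth between N2 and the mutants thus lay in this block, and counts that set N2 H3K9me3 libraries against those of a mutant move with it there. They are given below with and without the block.

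**Figure D2:**
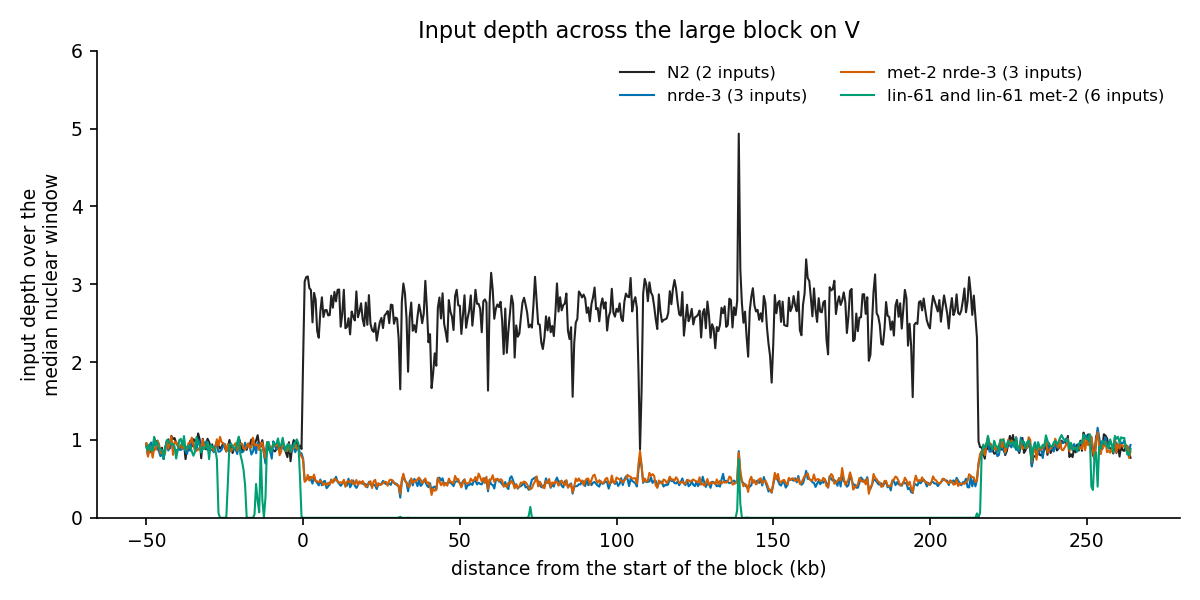
Input depth relative to the median nuclear window across the block at chrV:2347466-2561964 and 50 kb on each side, as the mean of the N2 inputs 2 and 3, the 3 nrde-3 inputs, the 3 met-2 nrde-3 inputs and the 6 lin-61 series inputs. The N2 line steps up at both ends of the block and the mutant lines step down, to a median of 0.43 to 0.50, while the lin-61 series lies at 0 apart from a few windows.

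Most of the other members had the depth of a single window. Over the 6 mutant inputs 73.2% of the 1570 members outside the large block lay within 0.25 of the median window, taken as 1, against 97.0% of nuclear windows. A mean depth of at least 5 over the 8 inputs was found in 39 members. The deepest runs were the pair near the right end of chromosome I, where the worm's ribosomal RNA genes are known to lie in tandem. At chrI:15061937-15063436, 8987 bp from the end of the chromosome, N2 had an input depth of 58.9, nrde-3 of 65.9 and the double mutant of 46.5. At chrI:15068937-15071436, 987 bp from the end, it was 53.7, 59.1 and 41.9. The next in depth were chrIII:2078094-2080093, at 7.76 to 8.46 in the 3 strains, chrI:10211458-10214957, at 6.66 to 7.48, and chrI:13404944-13407443, at 3.53 to 3.83.

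The level of H3K9me3 was taken as the log2 ratio of H3K9me3 over input in each preparation, with both counts scaled to the library and 8 counts added. The median over all members was 0.59 and 0.80 in N2 preparations 2 and 3, 0.28, 0.56 and 0.23 in nrde-3 preparations 1 to 3, and 0.12, 0.06 and 0.06 in met-2 nrde-3. N2 lay above nrde-3, and nrde-3 above met-2 nrde-3, with no overlap. Scaled to library totals the order turned: N2 was the lowest at -0.46, then the double mutant at -0.28 and nrde-3 at -0.21. That scaling placed the median of all nuclear windows at -1.17 in N2, -0.58 in nrde-3 and -0.39 in the double mutant. As mean and SD of these medians, N2 had a level of 0.69 ± 0.15 (SD, n = 2), nrde-3 had 0.35 ± 0.18 (n = 3) and met-2 nrde-3 had 0.08 ± 0.03 (n = 3). The N2 values use inputs of the rule and are a description. The order of the strains was shared with the flanking windows, which stood at 0.67 ± 0.11, 0.30 ± 0.14 and 0.05 ± 0.01, while all nuclear windows stood at -0.05 ± 0.01, -0.02 ± 0.01 and -0.03 ± 0.02.

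The large block on V pulled the member level down. Its own members stood at 0.24 ± 0.09 in N2, 0.04 ± 0.12 in nrde-3 and -0.19 ± 0.10 in the double mutant. Without it the 1570 other members reached 1.09 ± 0.16, 0.55 ± 0.26 and 0.20 ± 0.02. The upper part of the distribution was high in every strain. In N2 preparation 3 the upper quartile of these members was 3.14 and the 90th percentile 4.19, and in met-2 nrde-3 preparation 3 they were 1.5 and 3.28. The set thus held both members with much of the mark and members near their input, as the lower quartile of 0.07 in N2 preparation 3 shows.

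**Figure D3:**
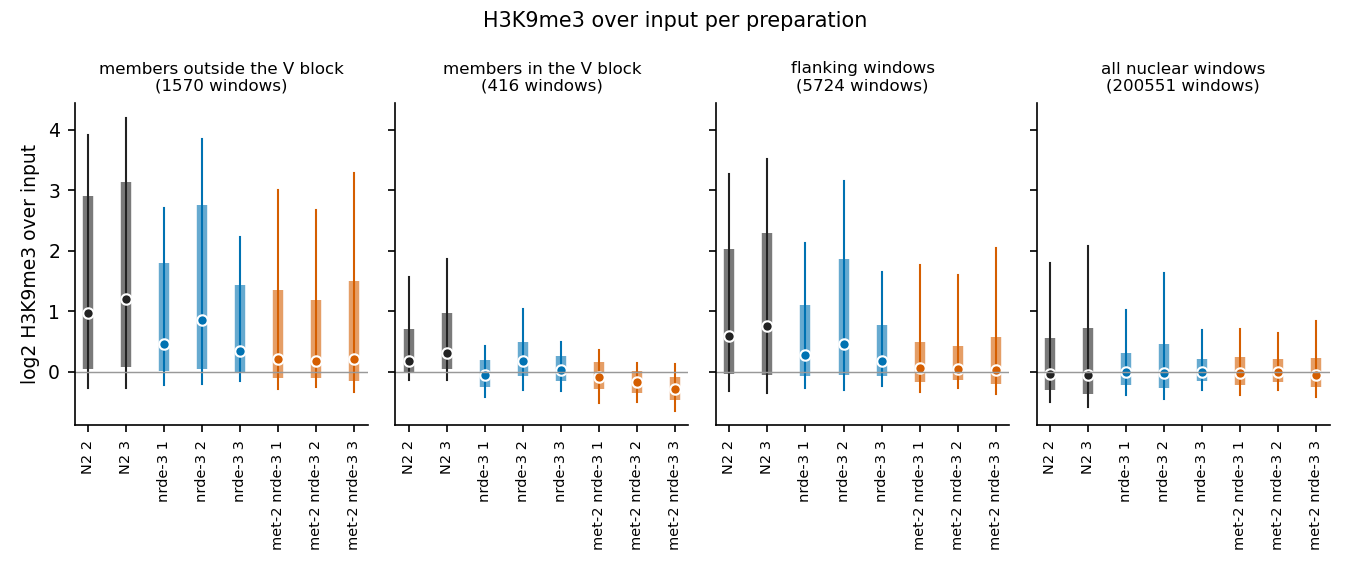
Level of H3K9me3 over input per preparation for the members outside and inside the large block on V, the flanking windows and all nuclear windows, with the median as a dot, the quartiles as a bar and the 10th to 90th percentile as a line. Outside the block the medians are 0.97 and 1.20 in N2, 0.35 to 0.85 in nrde-3 and 0.18 to 0.21 in met-2 nrde-3.

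By place on the chromosome, the values of the autosome centres came from a single block. The 332 members there had a level of 1.23 ± 0.11 in N2, 0.40 ± 0.24 in nrde-3 and 0.69 ± 0.08 in the double mutant, but 155 of them are the block in the centre of V. Without it the other 177 stood at -0.09 ± 0.0050, -0.01 ± 0.05 and 0.11 ± 0.0063, where all centre windows stood at -0.33 ± 0.05, -0.15 ± 0.08 and 0.09 ± 0.01. In the arms, outside the large block, members stood at 1.11 ± 0.15, 0.58 ± 0.28 and 0.15 ± 0.02, against 0.33 ± 0.06, 0.13 ± 0.07 and -0.07 ± 0.03 for all arm windows. On X members stood at 0.92 ± 0.17, 0.49 ± 0.28 and 0.03 ± 0.06, against -0.13 ± 0.03, -0.04 ± 0.02 and -0.04 ± 0.03. In N2 and nrde-3 the members of the arms and of X thus stood above all arm windows and all X windows. They also stood above the centre members outside that block. The flanking windows were not split by place.

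A first question was whether members carried H3K9me3 above input within each mutant, which the rule did not touch. In nrde-3, edgeR's quasi-likelihood test called 898 of 1986 members at an adjusted p under 0.05, 874 with H3K9me3 above input and 24 below. That was 44.0% above, against 20.5% of all 200572 windows tested and 43.6% of the flanking windows. Of all windows 5.52% were below input and 26.0% were called in either direction. In met-2 nrde-3 it called 678, 590 above and 88 below, so 29.7% were above, against 15.6% of all windows and 24.0% of the flanking windows (of all windows, 3.60% were below and 19.2% called in either direction). Outside the large block 818 members (52.1%) were above input in nrde-3 and 586 (37.3%) in the double mutant. With the input labels exchanged 835 and 573 members were above input (790 and 569 outside the block), and with N2 replicate 1 in the fit 0 and 342 were. In the fit with N2 replicate 1, 77 and 21007 of all windows were above input. Scaled to library totals, the direction of the balance turned, to 665 above and 903 below in nrde-3 and to 529 and 902 in the double mutant. That scaling moved the median of all windows to -0.60 and -0.42.

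Next, nrde-3 was set against N2, a comparison that bears on how far the mark over these windows goes with the Argonaute. Because the rule used N2 inputs, the test set the H3K9me3 libraries alone against each other. Members were mostly lower in nrde-3: edgeR called 1054 lower and 4 higher, that is 53.1% lower against 21% of all windows and 40.9% of the flanking windows, and 0.201% higher against 3.47% of all windows. Called in either direction were 24.5% of all windows. All 416 members of the large block were among the lower ones, where the depth of the inputs also differs, and outside it 638 members (40.6%) were lower, which is close to the share of the flanking windows. The same comparison over input uses the N2 inputs of the rule, so its counts and p-values, here and below, are a description. Lower were 6.80% of members, against 3.92% of all windows and 6.45% of the flanking windows. Of all windows 0.297% were higher and 4.22% were called in either direction. Among members 135 were lower and 0 higher, and 81 of the 135 lay outside the block. This count depended on single preparations, and so did that over all windows. Of all windows 8463 were called in the fit used, 51976 without nrde-3 replicate 2, and 1203 and 1665 without nrde-3 replicates 1 and 3. With N2 replicate 1 in the fit 20 were. The member count moved in the same directions. It was 984 (979 lower) without nrde-3 replicate 2, 848 of the lower ones outside the block, 36 and 66 without nrde-3 replicates 1 and 3, 90 and 29 without N2 replicates 2 and 3, and 67 to 71 without a met-2 nrde-3 replicate. It was 1 with N2 replicate 1 in the fit, 97 with the input labels exchanged (47 outside the block), 94 with the replicate number as a block and 509 of 1333 members tested in DESeq2. Scaled to library totals it turned, to 127 lower and 358 higher, with the median of all windows at 0.59. The size of the difference over input was a median log2 change of -0.57 outside the block.

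The count on the H3K9me3 libraries also depended on single preparations, as did that over all windows. Of all windows 49159 were called in the fit used, and 23392, 67885 and 19924 without nrde-3 replicates 1, 2 and 3. With N2 replicate 1 included 664 were. Among members the count moved in the same directions. It was 761 without N2 replicate 2, 460 without N2 replicate 3, 615, 1363 and 624 without nrde-3 replicates 1, 2 and 3, and 413 with N2 replicate 1 included, of which 2 lay outside the block. Without N2 replicate 3, 45 lay outside the block. Among the nrde-3 preparations, preparation 2 had the highest level in members, at 0.56 against 0.28 and 0.23, so the preparations of this strain spread widely. Scaled to library totals, 682 members were lower and 522 higher, with the median of all windows at 0.60.

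Of the 626 members with a level of at least 2 in N2, 35 were under 1 in nrde-3. Among runs of at least 3 windows of which every window was called, the largest loss on the H3K9me3 libraries outside the large block was at chrII:1459508-1461507, of 4 windows. Its levels were 3.65 and 3.84 in N2, -0.15, 0.44 and -0.0073 in nrde-3 and -0.19, -0.23 and -0.13 in met-2 nrde-3. All 3 nrde-3 preparations were near 0 and more than 3 below both N2 preparations. The mean log2 change of its H3K9me3 counts from N2 to nrde-3 was -3.55 (median adjusted p of its windows = 2.56e-12, edgeR). Over input, as a description because the rule used the N2 inputs, it was -3.71 (3.11e-08). With N2 replicate 1 in the fit the change on the H3K9me3 libraries was -3.03 and did not pass (0.196). A run near it, chrII:1448008-1450007, had the largest change over input, -3.79 (1.09e-08), and -3.54 on the H3K9me3 libraries, and was named after its values were seen. The other runs that the naming rule gave, chrV:2378966-2380965 and chrV:2487466-2488965, lay in the large block, with changes of -3.83 and -3.90. There the input depth was 2.81 and 2.64 in N2 against 0.49 and 0.45 in nrde-3, and over input the changes were -1.30 and -1.34 (adjusted p = 0.0152 and 0.00745, edgeR).

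Runs high in N2 stood lower in nrde-3 by a smaller step. The highest level in N2 was at chrII:2008005-2009504, at 5.00 and 5.23, where nrde-3 had 3.67, 4.94 and 3.08. At chrIII:11599054-11601553 N2 had 4.81 and 5.14 and nrde-3 3.31, 4.59 and 2.82, and the neighbouring run chrIII:11594554-11596053 had 4.74 and 5.13 against 3.32, 4.51 and 2.87. In each of these runs nrde-3 preparation 2 was close to N2 and the other preparations were lower. On the H3K9me3 libraries alone every window of these runs was called, with changes of -1.03, -1.14 and -1.13 (median adjusted p = 0.0280, 0.0182 and 0.0175, edgeR), but over input no window passed (0.165, 0.112 and 0.115). The calls on the H3K9me3 libraries rested on single preparations. The median adjusted p of the 3 runs was 0.266, 0.225 and 0.233 without N2 replicate 3, 0.114, 0.0885 and 0.0782 without nrde-3 replicate 1, 0.103, 0.0682 and 0.0639 without nrde-3 replicate 3, and 0.880, 0.864 and 0.863 with N2 replicate 1 in the fit. Without N2 replicate 2 it was 0.0680, 0.0538 and 0.0495, and the run on II also missed the threshold with the replicate number as a block (0.0553) and without met-2 nrde-3 replicate 1 (0.0568). Of 190 runs of at least 3 windows, 59 were lower in every window on the H3K9me3 libraries, 8 were so over input (6 with the input labels exchanged) and none was higher in every window.

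The comparison of the double mutant with nrde-3 is independent of the rule, since neither strain was used in it, and was made over input. Members were more often lower than higher in the double mutant. edgeR called 683, or 34.4% against 29.0% of all windows. Lower were 514 (25.9%, against 16.2% of all windows and 31.2% of the flanking windows), and higher were 169 (8.51%, against 12.8% and 12.1%). Outside the large block 461 were lower and 169 higher, so the block held no higher member. With the input labels exchanged, 468 were lower and 156 higher, 431 and 154 of them outside the block. On the H3K9me3 libraries alone, which do not rest on the input labels, 665 were lower and 241 higher (33.5% and 12.1%, against 22.6% of all windows lower, 16.9% higher and 39.5% called in either direction).

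Some settings changed this balance. Without nrde-3 replicate 2 the split was 423 lower and 333 higher, and scaled to library totals it was 448 and 333, with the median of all windows at 0.16. With N2 replicate 1 in the fit, 123 were called, 13 lower and 110 higher. The calls over all windows turned in the same way, from 32577 lower and 25657 higher to 520 lower and 14547 higher. Of the 190 runs of at least 3 windows, 38 were lower in every window and 7 higher in every window (40 and 7 with the input labels exchanged).

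The clearest losses in the double mutant relative to nrde-3 were runs that had held much of the mark in nrde-3. At chrII:1038009-1039508 the levels were 4.63 and 5.06 in N2, 3.36, 4.78 and 2.88 in nrde-3 and 0.40, 0.17 and -0.0076 in met-2 nrde-3. The mean counts per window were 1214, 1671 and 915 in the nrde-3 H3K9me3 libraries and 108, 139 and 109 in those of met-2 nrde-3, on inputs of 110 to 149. The double mutant lay at its input level and overlapped neither nrde-3 nor N2, while nrde-3 preparation 2 lay within the range of N2. The log2 change over input was -3.71 (median adjusted p = 4.44e-07, edgeR).

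Other losses were of the same kind. At chrIV:14212283-14214782 nrde-3 had 2.44, 3.76 and 2.04 and met-2 nrde-3 0.02, -0.47 and -0.20, a change of -3.14 (1.43e-06). The neighbouring runs chrV:16939904-16942403 and chrV:16944904-16947403, each of 5 windows and 5000 bp apart at their starts, gave 2.81 ± 0.76 and 2.82 ± 0.77 in nrde-3 and 0.04 ± 0.02 and 0.15 ± 0.04 in met-2 nrde-3, with changes of -2.95 and -2.84. At chrV:17289402-17290901 the change was -2.88, from 2.61 ± 0.72 to -0.09 ± 0.09. All 5 runs lay in arms, and in each every window was called lower.

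The longest runs on X, IV and II lost part of the mark. On X the run chrX:226237-234236, of 16 windows, had levels of 3.83 and 4.20 in N2, 2.77, 3.78 and 2.21 in nrde-3 and 1.19, 1.08 and 1.30 in met-2 nrde-3. Its neighbour of the same length, chrX:235737-243735, had 4.02, 2.90 and 1.20 as means in the 3 strains, against 4.02, 2.92 and 1.19 in the first. On IV the longest run, chrIV:894340-905339, had 3.83 ± 0.26, 2.59 ± 0.75 and 1.08 ± 0.14, and on II chrII:1003510-1015009 had 3.66 ± 0.21, 2.63 ± 0.79 and 0.93 ± 0.11. The run on II had a lower input depth in N2, 0.74, than in nrde-3, 1.09, and met-2 nrde-3, 1.06. From N2 to nrde-3 its H3K9me3 counts changed by -0.35 (median adjusted p = 0.451, edgeR), and over input by -0.92 (0.227). Relative to nrde-3 the double mutant changed by -1.88, -1.65 and -1.85, with every window of the runs on X, IV and II called lower. These runs kept a level near 1 in the double mutant, apart from the runs named before, which fell to about 0.

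Gains in met-2 nrde-3 were fewer than losses. The 169 members called higher were 53 on I, 51 on V, 28 on III, 22 on IV, 9 on X and 6 on II. The longest run on I, chrI:4341483-4355982 in the left arm, consisted of 29 windows. Its levels were 0.37 and 0.47 in N2, 0.43, 0.83 and 0.47 in nrde-3 and 4.33, 3.91 and 4.66 in met-2 nrde-3. The mean count per window was 475, 387 and 538 in the nrde-3 H3K9me3 libraries and 6966, 6959 and 9571 in those of met-2 nrde-3, while the inputs of both strains held 433 to 510. All 3 double mutant preparations stood more than 3 above every other preparation. The log2 change over input against nrde-3 was 3.77 (median adjusted p = 3.08e-08, edgeR), and all 29 windows were called.

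Near it on I, chrI:4288483-4291982 had 3.06 ± 0.43 in met-2 nrde-3 against 0.08 ± 0.16 in nrde-3 and -0.23 ± 0.0016 in N2, and chrI:4282483-4283982 had 2.91 ± 0.39 against 0.02 ± 0.13 and -0.21 ± 0.20. On III the runs chrIII:7427572-7429071, in the centre, and chrIII:4437084-4438583, in the left arm, had 3.21 ± 0.32 and 2.60 ± 0.23 in met-2 nrde-3 and were among the 5 lowest runs in N2, at -0.45 ± 0.01 and -0.56 ± 0.03. The changes of these 4 runs against nrde-3 were 3.04, 2.95, 3.19 and 2.76, in the order named. Every window of each was called higher. All 5 gaining runs had input depths above that of the median window, from 1.43 to 2.09 in the 3 strains.

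As a description over single windows, 87 of the 1094 members that were under 1 in N2 reached 1 or more in met-2 nrde-3 (7.95%, against 10.1% of the flanking windows and 5.25% of all nuclear windows). These 87 lay in 20 blocks, and 29 were the run at chrI:4341483-4355982 and 12 the block chrI:4282483-4291982. With the input labels exchanged 87 did so as well. In nrde-3, 4 members moved this way (0.366%, against 0.0306% of the flanking windows and 0.0825% of all nuclear windows), and with the labels exchanged 0 did. The share of members that gained in met-2 nrde-3 lay between those of all nuclear windows and the flanking windows.

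The members that were high in N2 kept the mark in part. A level of at least 2 in N2 was found in 626 members (31.5%), in 27.2% of the flanking windows and in 9.54% of all nuclear windows. Of the 626, 591 (94.4%) were still at 1 or more in nrde-3, a share like the 94.9% of flanking and 95.6% of all nuclear windows. In met-2 nrde-3, 349 (55.8%) were, against 33.6% of flanking and 22.7% of all nuclear windows. With the input labels exchanged these counts were 589 and 348. Without the block in the centre of V the share was 47.5%, or 251 of 528. The 349 kept members lay to 34.7% in autosome centres, and the 277 lost ones to 89.2% in arms and 5.05% in centres.

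The block in the centre of V held 98 of the 349 kept members, and of the 121 that lay in autosome centres. Over its 155 members the median level was 2.58 and 2.80 in N2, 1.56, 2.66 and 1.32 in nrde-3 and 2.80, 2.58 and 3.09 in met-2 nrde-3, so the double mutant was at the level of N2. The 199 nonmember windows within 50 kb were at -0.11 and -0.07 in N2, at -0.032 to 0.0060 in nrde-3 and at 0.60 to 0.68 in met-2 nrde-3. Its longest runs, chrV:8820938-8839437 and chrV:8862938-8881437 of 37 windows each, had 3.15 ± 0.09 and 3.08 ± 0.06 in N2, 2.33 ± 0.69 and 2.27 ± 0.68 in nrde-3 and 2.99 ± 0.30 and 2.95 ± 0.27 in met-2 nrde-3. These runs were named after their values were seen. Against nrde-3 the change was 0.59 and 0.61, and it did not pass the test (median adjusted p = 0.270 and 0.262, edgeR), apart from 1 window of the second run. The peaks of the block reached 4.49 in N2, 3.50 in nrde-3 and 4.60 in the double mutant.

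**Figure D4:**
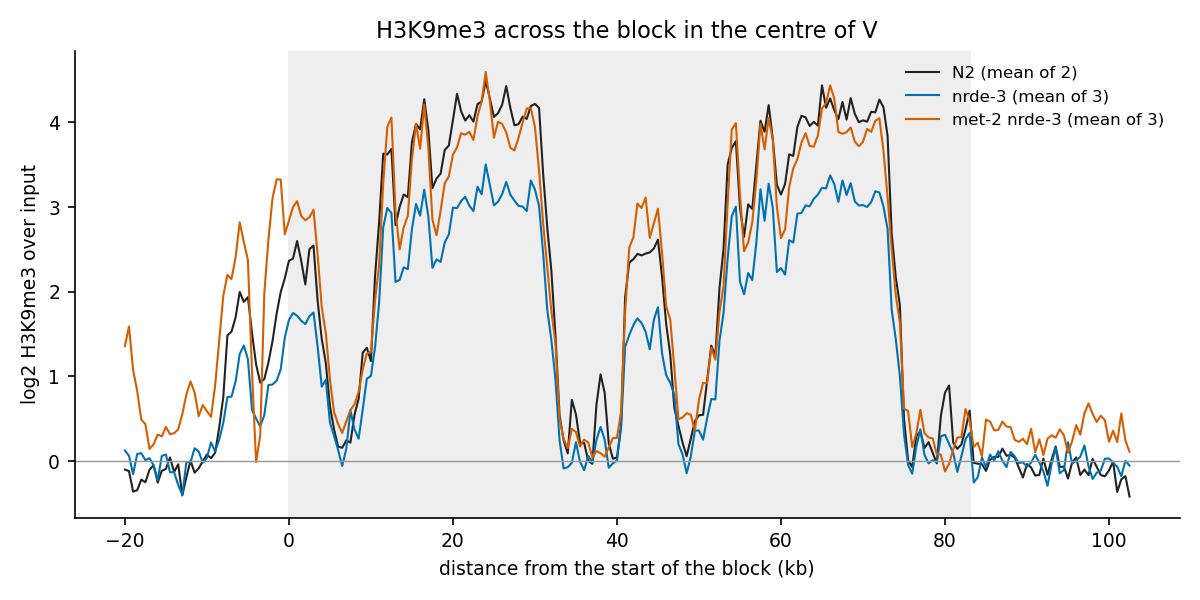
Mean level of H3K9me3 over input per window across the block at chrV:8813938-8896937, shaded, and 20 kb on each side, for N2 (2 preparations), nrde-3 (3) and met-2 nrde-3 (3). The same profile of peaks appears again after 42.5 kb, with met-2 nrde-3 at the height of N2 and nrde-3 lower.

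Other runs kept the mark as well. Of the 5 runs highest in N2, 4 stood at 4.36 to 4.57 in met-2 nrde-3. At chrI:14885938-14889437 the levels were 4.72 and 5.01 in N2, 3.41, 4.58 and 3.00 in nrde-3 and 4.71, 4.09 and 4.91 in met-2 nrde-3, and at chrII:14327952-14330451 they were 4.69 and 5.03, then 3.29, 4.43 and 2.82, then 4.48, 4.14 and 4.87. In both, the double mutant overlapped N2 or nearly so and lay above nrde-3 preparations 1 and 3. The difference from nrde-3, 0.82 and 0.89, did not pass over input (median adjusted p = 0.180 and 0.130, edgeR). On the H3K9me3 libraries alone it was 0.78 and 0.85 and passed (0.0404 and 0.0261), with 5 of 7 and 5 of 5 windows called higher. The fifth, chrII:2008005-2009504, fell to 2.51 ± 0.44, a change of -1.50 against nrde-3 (0.0147).

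Against N2, on the H3K9me3 libraries alone, met-2 nrde-3 was lower in 1216 members and higher in 176. This was 61.2% lower, against 31.5% of all windows and 53.7% of the flanking windows, and 8.86% higher, against 24.5% and 14.8%, with 56.0% of all windows called in either direction. Outside the large block 800 were lower and 176 higher. Over input, which uses the N2 inputs of the rule and is a description, 893 were lower and 142 higher. This was 45% lower, against 27.2% of all windows and 47.7% of the flanking windows, and 7.15% higher, against 18.3% and 11.9%. Of all windows 45.5% were called in either direction. Outside the block 701 members were lower and 141 higher over input. With the input labels exchanged the counts over input were 857 and 150 (681 and 149 outside the block). On the H3K9me3 libraries, 919 were lower and 157 higher with N2 replicate 1 in the fit, and 942 and 729 scaled to library totals, with the median of all windows at 0.84. Over input the direction turned in both settings, to 26 lower and 108 higher and to 563 lower and 689 higher, with the median of all windows at 0.83 under library totals. With N2 replicate 1 in the fit, 3804 of all windows were lower over input and 14558 higher. This comparison and that of nrde-3 with N2 share their N2 libraries.

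The largest losses against N2 were chrII:1038009-1039508, described above, at -4.57, and the deep pair of runs at the right end of I. At chrI:15068937-15071436 the levels were 4.21 and 4.42 in N2, 2.38, 3.45 and 2.11 in nrde-3 and 0.51, 0.41 and 0.36 in met-2 nrde-3. The strains followed each other without overlap. The change on the H3K9me3 libraries was -4.26 from N2 to met-2 nrde-3 (median adjusted p = 6.36e-13, edgeR) and -1.42 from N2 to nrde-3 (0.000408), and over input the double mutant differed from nrde-3 by -2.32 (1.88e-06). At chrI:15061937-15063436 these values were -4.23, -1.41 and -2.31. The input depth of this pair was lowest in the inputs labelled met-2 nrde-3 and highest in those labelled nrde-3, and with these labels exchanged the differences from nrde-3 were -3.34 and -3.33. As labelled, the changes from N2 over input were -3.89 and -3.88.

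**Figure D5:**
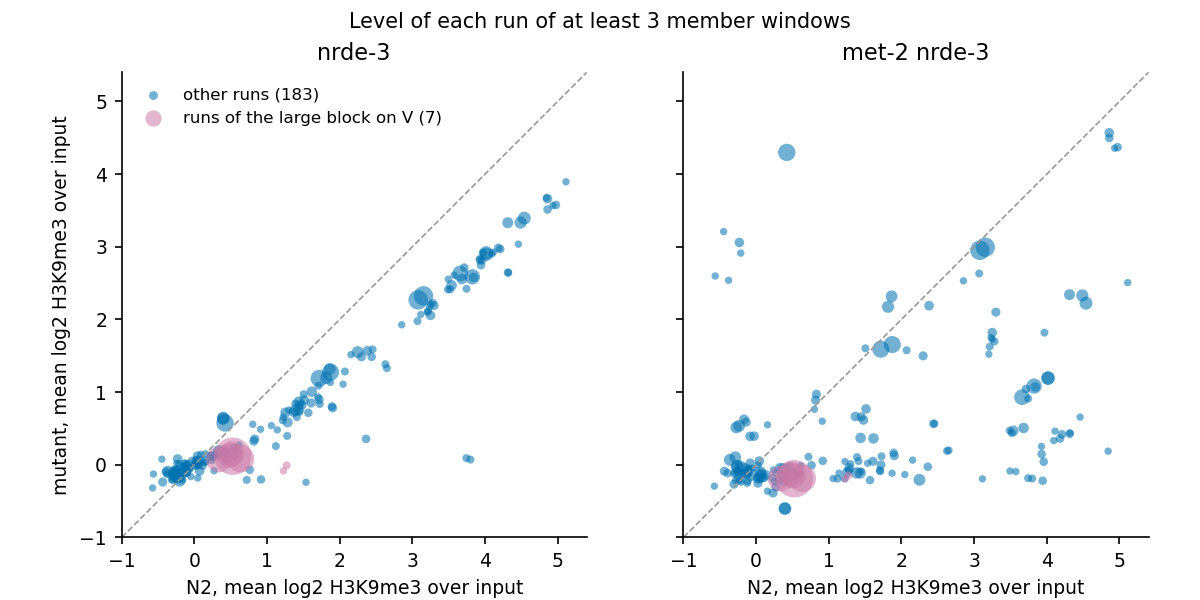
Mean level of each of the 190 runs of at least 3 member windows in each mutant strain, plotted against that in N2, with the area of a point growing with the number of windows and the line of equal level dashed. In nrde-3 runs high in N2 lie along a band below the line, and some runs low in N2 lie above it. In met-2 nrde-3 runs spread from near 0 to the line, and the gaining runs named above lie far above it. Among these are the 29 windows at chrI:4341483-4355982, at 4.30.

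Some runs stood near or below their input in N2. The lowest runs in N2 that did not gain were chrII:5630490-5631989, chrX:4333719-4336718 and chrIV:7366813-7369312, at -0.57 ± 0.01, -0.44 ± 0.20 and -0.39 ± 0.06, and in met-2 nrde-3 they were at -0.29 ± 0.04, -0.09 ± 0.16 and -0.12 ± 0.07. The longest run on III, chrIII:8337068-8343067 of 12 windows in the centre, had an input depth of 2.10 to 2.21 and levels of -0.36 ± 0.04, -0.10 ± 0.08 and 0.07 ± 0.02. No window of these 4 runs passed between the double mutant and nrde-3 over input. The deep run chrI:10211458-10214957 was at 0.04 ± 0.17, 0.12 ± 0.30 and 0.05 ± 0.05.

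Runs of like length, within 1 window, that lay close together had close levels. In 42 such pairs, 24 of equal length and 18 that differed by 1 window, the N2 level differed by a median of 0.054, against an SD of 1.64 between the 103 runs of at least 5 windows, and the difference was 0.049 against 1.17 in nrde-3 and 0.039 against 1.14 in met-2 nrde-3. Pairs may share reads, so this is a description of the counts. The widest pair was an exception that the length rule had joined: chrII:14306453-14309452 had 1.72 in N2 and -0.0018 in met-2 nrde-3, where chrII:14327952-14330451 had 4.86 and 4.50.

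A run of 14 windows at chrV:18048399-18055398 was chosen after its values were seen. Among runs of at least 10 windows it had the highest ratio of input depth with the label met-2 nrde-3 over that with nrde-3. Being chosen by these inputs, it is a description and no test of their labels. Its input depth was 1.11 to 1.41 in the libraries labelled nrde-3 and 1.82 to 1.88 where the label was met-2 nrde-3, while the H3K9me3 depth was 1.82 to 2.17 and 1.21 to 1.24. As labelled, the levels were 0.95, 0.62 and 0.36 in nrde-3 and -0.58, -0.62 and -0.60 in met-2 nrde-3, and all 14 windows were called lower. With the input labels exchanged, they were 0.015, 0.18 and 0.0018 in nrde-3 and 0.35, -0.19 and -0.24 in met-2 nrde-3. Over all members the ratio of the inputs labelled met-2 nrde-3 to those labelled nrde-3 exceeded 1.5 in 7 and was under 0.667 in 1.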

How the data were processed

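The authors deposited raw counts per 500 bp window of ce10, 1 column per library, per the file headers and the labels, so the 2 runs of each library appear combined. The aligner, the counting tool and the handling of multiply matching reads are not given in the sources used here. The members and lists were chosen with earlier results of these data known. Columns were matched to their groups by name.

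edgeR 4.0.16 in R 4.3.3 was fitted to the 16 libraries of series 2236 without N2 replicate 1, with TMM factors (0.526 to 1.26), 1 group per genotype and library type, and Benjamini-Hochberg adjustment over the 200572 windows with a count (threshold 0.05). The common dispersion was 0.0164. Levels used counts scaled to the TMM-corrected library size with 8 counts added. Runs were named by a rule on length, N2 level, depth and largest change among runs of at least 3 windows. A run's p is the median adjusted p of its windows. Python 3.11.15 with pandas 2.3.3 made the other tables. DESeq2 1.42.0 was an alternative, with a mean dispersion in place of a fitted trend. The scripts were tested on simulated data. Fragments were amplified and carry no molecular identifiers, so counts overstate the number of molecules. The labels call the preparations biological replicates.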

Additional observations from a re-analysis of the deposited data

Results flagged for a closer look

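Signals were present in libraries that no comparison used. In the 6 H3K9me3 libraries of the lin-61 series, whose inputs were at 0 by the rule, 157 members had a count, with at most 8 counts in a window. The members of the large block on V had a median depth of 2.94 in the library labelled N2 input 1 and of 3.02 in the library labelled N2 H3K9me3 1, which go against their labels elsewhere. In the mutant libraries of series 2236 the depth of that block was 0.40 to 0.50. Their causes were not tested.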

How the results depend on the processing

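The largest moves came with all 18 libraries and with library totals. With all 18 libraries the calls over all windows moved as well, from 49159 to 664 between nrde-3 and N2 on the H3K9me3 libraries. Between nrde-3 and N2 the count of 1058 became 413 with all 18 libraries, 614 at an adjusted p under 0.01, 135 over input and 642 outside the large block on V, and it ranged from 460 to 1363 when a preparation was left out. The calls of met-2 nrde-3 against nrde-3 turned towards gains with all 18 libraries, to 123 with 13 lower and 110 higher. Those over all windows did the same, at 520 lower and 14547 higher. The direction of H3K9me3 over input in nrde-3 turned scaled to library totals, at 1568 calls with 903 lower and 665 higher. With all 18 libraries it rested on 1 call, which was lower, where 134 of all windows were called. In met-2 nrde-3 it turned scaled to library totals, at 1431 calls with 902 lower and 529 higher, and the count was 357 with all 18 libraries. The cause was not tested.

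The ranges with a preparation left out were 509 to 756 for met-2 nrde-3 against nrde-3, 1228 to 1465 for met-2 nrde-3 against N2, and 756 to 904 and 505 to 765 for H3K9me3 over input in nrde-3 and in the double mutant. Without an N2 preparation the remaining N2 library of each type is assumed to vary like the other groups. DESeq2 called 702, 1210, 1402, 931 and 677 members in the order met-2 nrde-3 against nrde-3, nrde-3 against N2, met-2 nrde-3 against N2, and over input in nrde-3 and in the double mutant. The filter at 10 counts and DESeq2 size factors kept every count within 1.5 times.

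With the replicate number as a block the counts were 635, 886, 1360, 868 and 654 in the same order. Across the mutant strains the numbers showed no pairing, since preparations of the same number correlated at -0.17 to 0.21 and 1 of 12 such pairs exceeded 0.1. Within a mutant strain, the input and H3K9me3 library of the same number correlated at -0.13 to 0.04. The levels join these libraries by their number, whereas the tests over input do not, apart from the setting with the number as a block.

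The median member levels in N2, nrde-3 and the double mutant were -0.46, -0.21 and -0.28 scaled to library totals with N2 then the lowest, and 1.09, 0.55 and 0.20 outside the large block on V. Over the mean of the 8 inputs they were 1.42 in N2 and 0.012 in the double mutant. With a preparation left out they ranged over 0.59 to 0.80, 0.25 to 0.42 and 0.058 to 0.088. The number of members was 1972 at a minimum of 100 counts, 1987 at 10, 2585 with up to 2 counts per lin-61 series input, 1829 with 0 in all 12 lin-61 series libraries and 1570 outside the block.

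No named run that was called in a comparison (median adjusted p under 0.05, edgeR) changed direction in it under an alternative. Named runs that were not called were not checked. The N2 level of named runs moved by at least its SD in 47 of 186 values. Some of the 186 values came from leaving out an N2 preparation and could not move by this rule. With so few N2 preparations the shift is then always smaller than the SD, so these values say nothing about stability. Of the values for named runs, 17 of 255 lost their call for met-2 nrde-3 against nrde-3, 85 of 280 for nrde-3 against N2 and 5 of 308 for met-2 nrde-3 against N2. The members outside the large block on V, and the centre members outside the block in the centre of V, were chosen as alternatives after seeing the data.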
